A study of Mus musculus with 4 samples.

Results

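Chemokines are small secreted or cell surface proteins that bind G protein-coupled receptors and steer the movement of leukocytes. The 10 chemokine genes examined here in mouse mammary tumor cells were Cxcl10, Cxcl9, Ccl5, Ccl2, Cxcl1, Cxcl2, Cxcl5, Ccl20, Cx3cl1 and Cxcl16, and each was read by every non-control probe that the array names by its symbol. The rule found 11 probes, 2 for Cxcl9 and 1 for each of the others, among 39429 probes and 31829 gene names. Where a gene had 2 probes, the brighter over all arrays stood for it. RNA was labeled with Cy3 and hybridized to 1-color Agilent mouse arrays of oligonucleotide probes.

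The cells were tumor-derived breast cancer cells of MMTV-Neu mice, in which the mouse mammary tumor virus promoter drives the Neu oncogene, the rat form of Erbb2 (Her2), in mammary epithelium. The 4 samples formed 2 groups, Pak1 -/- (n = 2) and Pak1 +/+ (n = 2), to ask which genes differ in Her2-driven tumor cells that lack Pak1, a p21-activated kinase downstream of Rac and Cdc42. Both groups carried the Neu transgene, grew in low calcium medium with 5% horse serum, were serum starved for 3 h and then received EGF for 15 min, so no sample shows the cells without EGF. The samples of a group came from different tumors per the series design, while the study's methods speak of a cell line for each genotype, so the 2 samples of a group may be cultures of 1 line. Whether passages or cultures were separate and how old the mice were are not given in the sources used here. The p-values measure only the spread between 2 such samples per group, which may be technical, and differences between individual tumors and between genotypes cannot be told apart from so few.

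All arrays lay on 1 slide, with the Pak1 -/- samples at positions 1 and 2 and the Pak1 +/+ samples at positions 3 and 4, so position and genotype cannot be told apart. Median spot signal was 322 to 331 over a median local background of 39.0 to 42.0, and 62.2% to 70.4% of probes were well above background. Arrays of a group correlated across probes at r = 0.997, and arrays of different groups at r = 0.954 to 0.959, probes not being independent replicates. The Pak1 probe was not lower in the arrays labelled Pak1 -/-: its log2 intensity was 12.21 and 12.25 there against 12.04 and 12.04 in those labelled Pak1 +/+ (difference 0.19, SE 0.07, adjusted p = 0.0700). Whether this probe lies in the deleted part of the gene is not given in the sources used here, so directions below follow the labels. Erbb2 was at 11.91 and 11.95 in the Pak1 -/- arrays and at 12.26 and 12.21 in the Pak1 +/+ arrays, 1.24-fold lower (adjusted p = 0.0202).

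Chemokines are grouped by the spacing of their first cysteines, as CC, CXC and CX3C ligands. Cxcl9, Cxcl10 and Ccl5 draw activated T cells and NK cells, the CXC pair through Cxcr3, and Cxcl9 is a classical interferon-γ target while Cxcl10 answers to type I interferon as well. Cxcl1, Cxcl2 and Cxcl5 carry the ELR motif, bind Cxcr2 and draw neutrophils, and Ccl2 draws monocytes through Ccr2. Cx3cl1 and Cxcl16 are made as membrane-anchored proteins that metalloproteases can shed. Many of these genes are switched on by NF-κB, AP-1 and, for the Cxcr3 ligands, by STAT and IRF factors.

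Promoter windows are shown for the 4 members on chromosome 5 that RefSeq's promoter table holds. They form separate pairs of neighbors, Cxcl9 with Cxcl10, both higher on the array, and Cxcl1 with Cxcl2, neither past the threshold. Each window spans the 250 bases before the annotated start, is read 5′ to 3′ on the gene's strand, and comes from RefSeq on GRCm38.p6. Capitals mark matches to 3 motifs searched on both strands: the core of the interferon-stimulated response element (GAAANNGAAA, or TTTCNNTTTC on the other strand), a κB motif (GGGANNNNCC, or GGNNNNTCCC) and the AP-1 motif (TGANTCA). The Cxcl10 window is chr5:92348890-92349139 (minus strand), the Cxcl9 window chr5:92328080-92328329 (minus strand), the Cxcl1 window chr5:90890995-90891244 (plus strand) and the Cxcl2 window chr5:90903649-90903898 (plus strand).
Cxcl10: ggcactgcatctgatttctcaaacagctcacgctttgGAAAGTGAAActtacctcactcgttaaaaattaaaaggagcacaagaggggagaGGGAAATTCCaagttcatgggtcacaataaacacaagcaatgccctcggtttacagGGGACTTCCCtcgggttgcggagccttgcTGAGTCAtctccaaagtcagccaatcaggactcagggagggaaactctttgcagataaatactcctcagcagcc
Cxcl9: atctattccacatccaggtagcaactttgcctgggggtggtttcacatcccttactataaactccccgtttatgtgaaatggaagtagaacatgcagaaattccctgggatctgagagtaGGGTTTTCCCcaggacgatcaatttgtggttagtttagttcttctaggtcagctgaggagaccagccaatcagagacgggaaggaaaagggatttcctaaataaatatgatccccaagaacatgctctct
Cxcl1: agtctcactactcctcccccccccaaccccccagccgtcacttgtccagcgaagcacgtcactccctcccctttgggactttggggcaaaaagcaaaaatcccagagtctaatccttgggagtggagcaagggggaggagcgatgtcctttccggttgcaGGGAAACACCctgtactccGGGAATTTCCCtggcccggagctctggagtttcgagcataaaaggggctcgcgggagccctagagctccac
Cxcl2: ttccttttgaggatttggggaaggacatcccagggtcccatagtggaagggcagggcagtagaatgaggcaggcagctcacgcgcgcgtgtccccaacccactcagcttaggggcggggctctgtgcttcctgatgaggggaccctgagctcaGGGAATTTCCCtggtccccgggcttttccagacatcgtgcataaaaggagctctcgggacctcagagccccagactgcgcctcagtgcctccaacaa

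The Cxcl10 window held all 3 motifs. Its interferon element, GAAAGTGAAA, lay 213 to 204 bases before the start, its κB matches GGGAAATTCC and GGGACTTCCC 159 to 150 and 103 to 94 bases before it, and its AP-1 match TGAGTCA 74 to 68 bases before it. The Cxcl9 window held 1 κB match, on the other strand, 130 to 121 bases before the start. The κB matches of Cxcl1 (90 to 81 and 71 to 61 bases before the start) and of Cxcl2 (97 to 87 bases before it) include in each case a stretch, GGGAATTTCCC, that matches on both strands, shifted by a base. Of 32851 promoter windows of the same length, 2.98% held the interferon element core, 17.6% the κB motif and 6.75% the AP-1 motif. Of the other members in the table, Ccl20 held 1 κB match and Cx3cl1 held none of the motifs. Ccl5, Ccl2, Cxcl5 and Cxcl16 were not matched. A match is a string of letters and was not tested as a binding site.

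Across the 10 genes, 5 were higher in the Pak1 -/- cells (Cxcl10, Ccl5, Cxcl16, Cx3cl1 and Cxcl9), 2 were lower (Ccl2 and Cxcl5), 2 did not pass the threshold (Cxcl1 and Cxcl2) and 1, Ccl20, was too dim to be tested. The tests were limma's moderated tests with Benjamini-Hochberg adjustment over all probes kept, at an adjusted p of 0.05. The background was high: 22.8% of the 21961 genes tested were higher and 28.2% were lower in the Pak1 -/- cells. Which direction held more calls depended on the scaling: of the probes called, 44.9% were higher here and 52.4% with cyclic loess, where the median over all probes moved from -0.05 to 0.002. The median difference of the 9 members tested was 0.97 on the log2 scale, against -0.05 for all genes tested. It depended on the filter, and was 0.39 when probes had to be well above background on all 4 arrays, which drops Cxcl10, and also with no filter, which adds Ccl20. The groups did not overlap for any of these 9 genes, as for 77.6% of all genes with complete values, so that count by itself says little about the members.

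**Figure D1:**
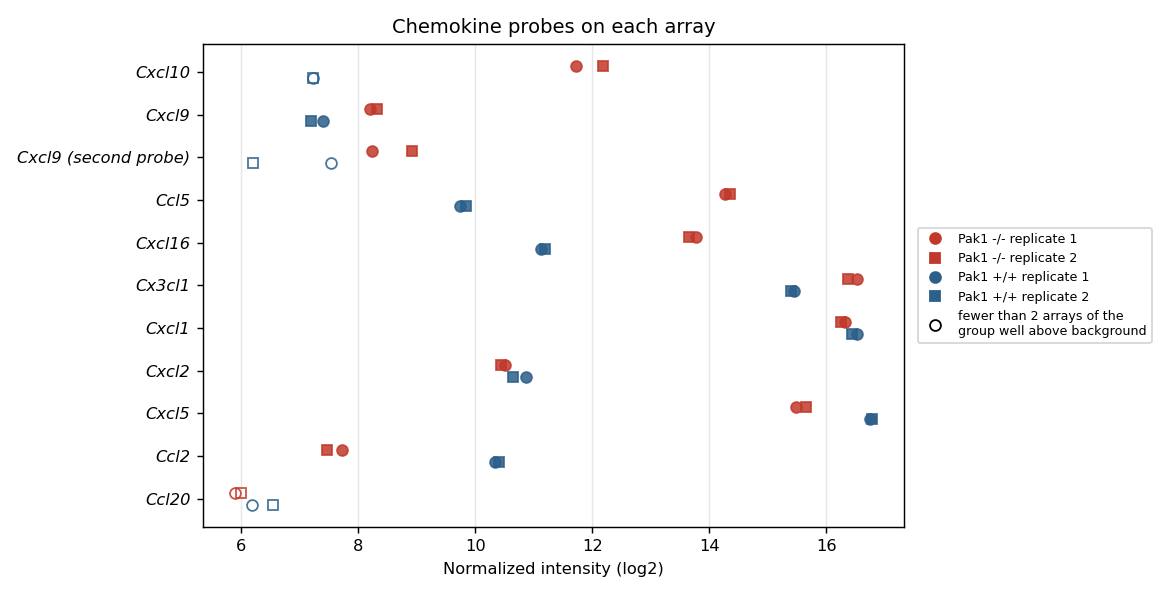
Normalized log2 intensity (horizontal axis) of each chemokine probe on the 4 arrays, with Pak1 -/- in red and Pak1 +/+ in blue, circles for replicate 1 and squares for replicate 2, and open symbols where fewer than 2 arrays of the group were well above background. The points of Cxcl10 and Ccl5 lie farthest apart, near 12 against 7.23 and near 14.3 against 9.8, and those of Cxcl1 and Cxcl2 nearly meet. Probes differ in brightness for their own sequence, so rows are not compared with each other.

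Among the chemokines that draw T cells and NK cells, Cxcl10 and Ccl5 showed the largest rises of all members, and Cxcl9 a smaller one. Cxcl10 (probe A_55_P2016462, mm9 chromosome 5, 92775781 to 92775840) was at 11.72 and 12.18 in the Pak1 -/- arrays and at 7.23 and 7.23 in the Pak1 +/+ arrays. Both Pak1 -/- arrays were far above the others, and in the Pak1 +/+ group the signal was well above background on 1 of 2 arrays. As spot signals before normalization these were 3237 and 4805 against 138 and 142, over a local background of 41.0 to 43.0. The difference was 4.72 (SE 0.17, 95% interval 4.28 to 5.16), or 26.3-fold, with an adjusted p of 0.000148. The size depended on the background correction: with the scanner's background-subtracted signal it was 55.5-fold (log2 difference 5.79). Alternatives spanned 4.49 to 5.79.

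Ccl5 (also called RANTES) rose by a like amount. Its probe (A_52_P638459, chromosome 11, 83339296 to 83339355) was at 14.26 and 14.36 in the Pak1 -/- arrays and at 9.73 and 9.84 in the Pak1 +/+ arrays, well above background on all 4. Spot signals were 18379 and 21632 against 848 and 863. The difference was 4.52 (SE 0.08, 95% interval 4.31 to 4.73), 23.0-fold, with an adjusted p of 4.51e-05. Unlike Cxcl10, Ccl5 moved little with the processing, from 4.47 to 4.64 over its alternatives. The intervals of Cxcl10 and Ccl5 overlap, and the difference between these genes was not tested.

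Cxcl9 rose much less. Its brighter probe (A_55_P1977038, chromosome 5, 92752796 to 92752855) was at 8.21 and 8.33 in the Pak1 -/- arrays and at 7.39 and 7.20 in the Pak1 +/+ arrays, a difference of 0.97 (SE 0.10), or 1.96-fold (adjusted p = 0.00193). All 4 arrays were well above background for this probe, though near the dim end of the scale. The other probe of Cxcl9 (A_51_P461665, 92752191 to 92752250) was at 8.23 and 8.92 against 7.54 and 6.20, and only 1 of the 2 Pak1 +/+ arrays was well above background. Its difference of 1.70 (SE 0.50, 95% interval 0.39 to 3.02) passed the threshold with an adjusted p of 0.0428 but lost it in 8 of its 13 alternatives, over all of which adjusted p ran from 0.00700 to 0.190. Its size rested on single arrays: it was 2.37 without Pak1 +/+ replicate 1 (adjusted p = 0.00700), 1.04 without Pak1 +/+ replicate 2 (adjusted p = 0.0555), and up to 2.98, or 7.90-fold, with the scanner's processed signal. The probes pointed the same way, and the size of the Cxcl9 rise was less certain than its direction.

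The membrane-anchored chemokines were both higher. Cxcl16, the ligand of Cxcr6 on T and NKT cells and a scavenger receptor for oxidized lipids, was read by probe A_52_P99888 (chromosome 11, 70267780 to 70267839). It was at 13.78 and 13.65 in the Pak1 -/- arrays and at 11.12 and 11.20 in the Pak1 +/+ arrays. The difference of 2.56 (SE 0.08, 95% interval 2.34 to 2.77) was 5.88-fold, with an adjusted p of 0.000119. Cx3cl1 (fractalkine), a ligand of Cx3cr1, was read by probe A_51_P196925 (chromosome 8, 97306185 to 97306244). It was at 16.52 and 16.37 in the Pak1 -/- arrays and at 15.45 and 15.40 in the Pak1 +/+ arrays. The gap of 1.02 (SE 0.08), or 2.03-fold, had an adjusted p of 0.00110. In both genes the spread within a group was small beside the gap between groups. Transcripts of the proteases that shed these proteins, Adam10 and Adam17, did not pass the test, with differences of 0.08 (SE 0.08) and -0.11 (SE 0.09).

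Ccl2 (MCP-1) fell, the largest fall among the members. Its probe (A_51_P286737, chromosome 11, 81850650 to 81850709) was printed in 10 spots, which gave a mean of 7.72 and 7.46 in the Pak1 -/- arrays and of 10.34 and 10.41 in the Pak1 +/+ arrays. Spot means before normalization were 198 and 192 against 1318 and 1308. The difference was -2.79 (SE 0.11, 95% interval -3.08 to -2.50), 6.90-fold lower, with an adjusted p of 0.000191. Spots within an array, which measure technical spread only, had an SD of 0.14 to 0.18. In Pak1 -/- replicate 2, 2 of the spots carried an outlier flag and were left out. They read 8.09 and 8.54, still below every Pak1 +/+ spot, of which the lowest was 10.10, and with them kept the difference was -2.70. With the scanner's background-subtracted signal the fall was 10.6-fold (log2 difference -3.41).

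**Figure D2:**
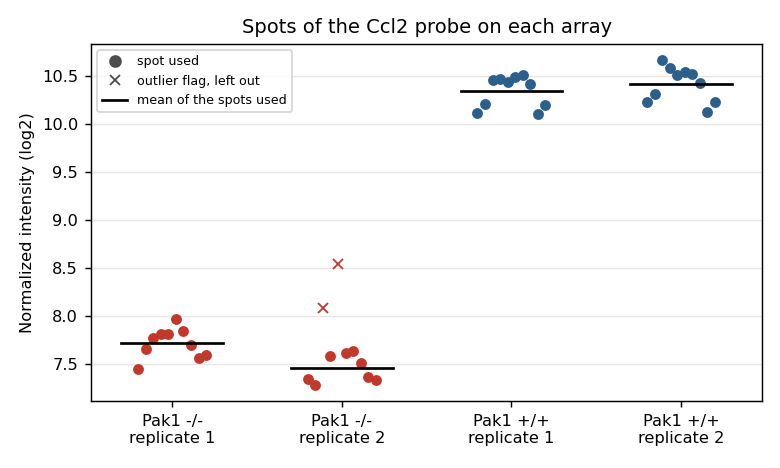
Normalized log2 intensity (vertical axis) of the 10 spots of the Ccl2 probe on each array, in array order with Pak1 -/- in red and Pak1 +/+ in blue. Bars mark the mean of the spots used and crosses the 2 spots of Pak1 -/- replicate 2 left out for an outlier flag. The red spots used lie between 7.28 and 7.97 and the blue spots between 10.10 and 10.66.

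Of the neutrophil-attracting ELR chemokines among the members, all 3 had negative differences, and Cxcl5 alone passed the threshold. The differences between them were not tested. Cxcl3, an ELR ligand outside the members, was higher and is given below. Cxcl5 (LIX) was lower: its probe (A_55_P1990032, chromosome 5, 91190490 to 91190549) was at 15.49 and 15.65 in the Pak1 -/- arrays and at 16.74 and 16.78 in the Pak1 +/+ arrays. The difference of -1.20 (SE 0.09, 95% interval -1.42 to -0.97) was 2.29-fold, with an adjusted p of 0.000811. Cxcl5 thus stayed a bright probe in both groups while differing between them.

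Cxcl1 (KC) was bright in every array, at 16.32 and 16.25 in the Pak1 -/- cells and 16.52 and 16.44 in the Pak1 +/+ cells (probe A_51_P363187, chromosome 5, 91321845 to 91321904). The difference was -0.19 (SE 0.07), with an interval from -0.39 to 0.01 and an adjusted p of 0.0927. It passed the threshold in 3 of 15 alternatives, which were scaling to the 75th percentile of the scanner's processed signal (-0.39, adjusted p = 0.0201), the same scaling of the normexp values (-0.37, adjusted p = 0.0151) and a trended robust prior (-0.19, adjusted p = 0.0328). Cxcl2 (MIP-2) was at 10.50 and 10.44 against 10.87 and 10.64 (probe A_51_P217463, 91334534 to 91334593). Its difference of -0.29 (SE 0.10, interval -0.56 to -0.02, adjusted p = 0.0731) passed in none of its alternatives. The arrays of each gene did not overlap between groups, but in both the gap was small, and the intervals leave out a change of 2-fold.

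Ccl20, the ligand of Ccr6 on Th17 cells and immature dendritic cells, failed to rise well above background on all 4 arrays (probe A_55_P2175885, chromosome 1, 83115682 to 83115741). Its log2 intensity was 5.89 and 6.0 in the Pak1 -/- arrays and 6.19 and 6.54 in the Pak1 +/+ arrays. The spot signals of 48.9, 48.7, 56.9 and 84.3 stood over a local background of 38.5 to 44.0, so no fold was formed.

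**Figure D3:**
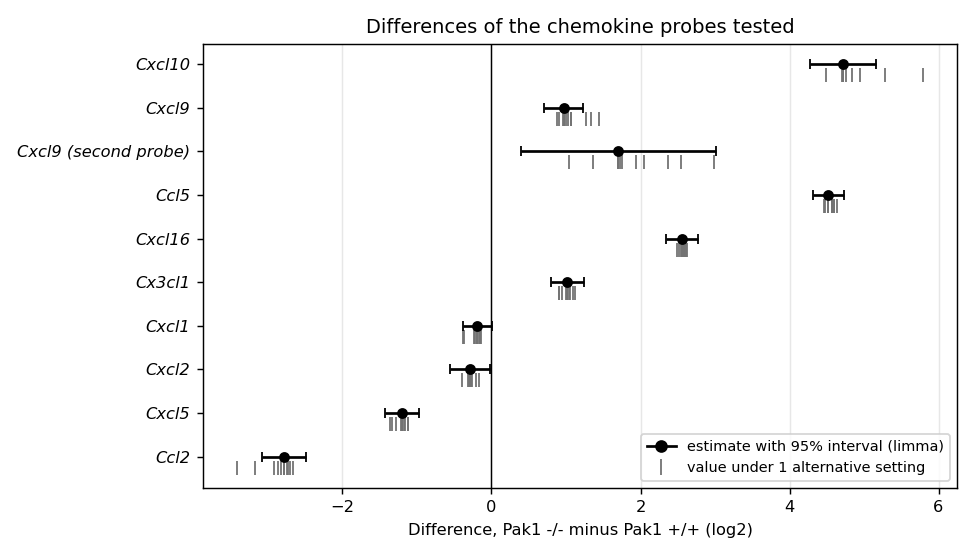
Difference in log2 intensity, Pak1 -/- minus Pak1 +/+ (horizontal axis), for the 10 chemokine probes tested, with limma's estimate and 95% interval in black and the value under each alternative setting as a gray tick. No tick crosses zero. Cxcl10, both Cxcl9 probes and Ccl2, which lie near the dim end of the scale in at least 1 group, have the most spread-out ticks.

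Several members lie in chemokine gene clusters, and neighbors differed. On chromosome 11, Ccl5 lay with Ccl9, Ccl6, Ccl3 and Ccl4 within 139 kb of probe positions, where 3 of 4 genes tested were higher (Ccl5, Ccl9 and Ccl4) and 1 was lower (Ccl6). Ccl2 lay elsewhere on that chromosome with Ccl7, Ccl11, Ccl12, Ccl8 and Ccl1 within 140 kb, and was the only gene of the group bright enough to be tested. Ccl7, another monocyte attractant, was at 6.16 and 6.10 in the Pak1 -/- arrays, where it was not well above background, and at 6.96 and 6.86 in the Pak1 +/+ arrays, 1 of which was. On chromosome 5, Cxcl5, Cxcl1 and Cxcl2 lay within 144 kb of Cxcl3, Pf4, Ppbp and Cxcl15. In this stretch 2 of 6 genes tested were higher (Cxcl3 and Pf4), and 1, Cxcl5, was lower. Cxcl9, Cxcl10 and Cxcl11 lay within 35.8 kb. Cxcl11, the remaining Cxcr3 ligand, did not pass the test by its brightest probe (difference 0.25, SE 0.11, adjusted p = 0.116). That probe had a mean log2 level of 18.89 over the arrays, against 12.60 for the other Cxcl11 probe. It ranked 45 from the brightest among all probes. Whether so bright a signal comes from Cxcl11 was not tested, so no conclusion on this gene is drawn from it. Ccl7 and Cxcl11 are named here for their position, with their values known.

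**Figure D4:**
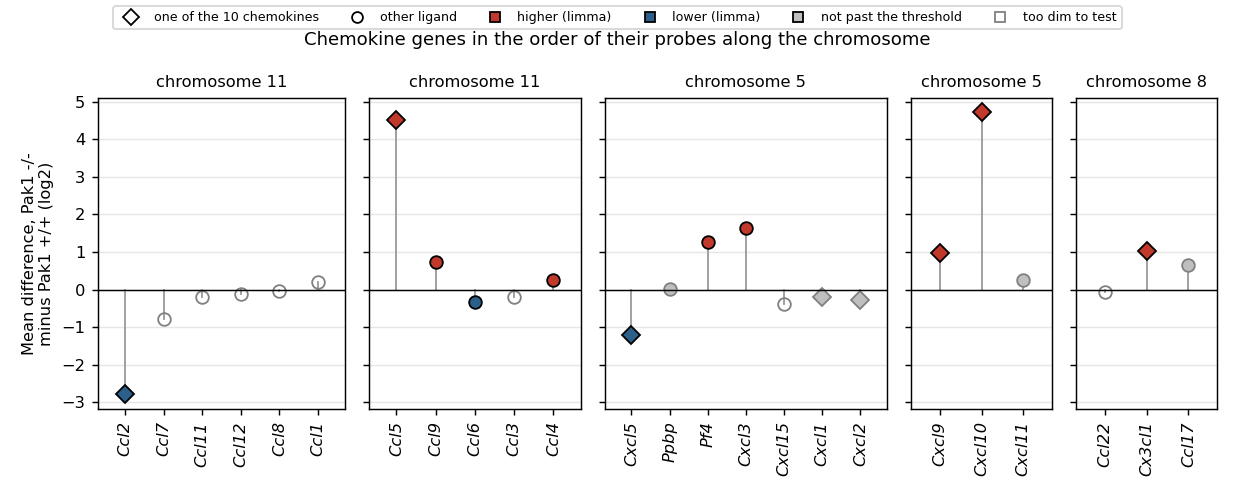
Difference of the group means in log2 intensity, Pak1 -/- minus Pak1 +/+ (vertical axis), for neighboring chemokine genes in the order of their probes along chromosomes 11, 5 and 8. Diamonds mark genes among the 10 described and circles other ligands. Cxcl16 and Ccl20 have no neighboring chemokine gene and are not shown. Red is higher and blue lower at the threshold, gray did not pass it, and open symbols were too dim to test. Ccl2 and Ccl5 stand out in their own panels, and Cxcl5 at -1.20 lies a few genes from Cxcl3 at 1.63.

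Of 30 other chemokine ligands, 29 had a probe and 17 could be tested, while 11 were dim (not well above background) on all 4 arrays. At the threshold 7 were higher and 1 was lower, with a median difference of 0.25. This median was 0.13 without Pak1 +/+ replicate 2, 0.10 with normexp values scaled to the 75th percentile, 0.04 when probes had to be well above background on all 4 arrays and 0.01 with no filter. Cxcl12, which retains Cxcr4-bearing cells in marrow and other tissues, was at 8.66 and 8.31 in the Pak1 -/- arrays and at 6.83 and 6.74 in the Pak1 +/+ arrays, where it was not well above background. It was at least 2.93-fold higher, with an adjusted p of 0.00106, a bound formed against the dimmest signal well above background on each array. Cxcl3, an ELR chemokine like Cxcl1 and Cxcl2, was higher by 1.63 (SE 0.09), at 11.64 and 11.61 against 10.09 and 9.90. It passed the threshold where those paralogs did not, and the difference between them was not tested.

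Pf4 (platelet factor 4) was at least 1.83-fold higher by the same kind of bound. Ccl28, a mucosal epithelial chemokine, was higher by 0.95 (SE 0.08), and Cxcl14, made by many epithelia, by 0.89 (SE 0.15). Ccl9 was higher by 0.73 (SE 0.11). Ccl4, another CC chemokine, passed narrowly (at least 1.02-fold higher, adjusted p = 0.0471) and lost the threshold in 5 of 9 alternatives other than leaving out a sample, and whichever of the 4 samples was left out (adjusted p 0.0805 to 0.221). Ccl6 was lower by a difference of -0.34 (SE 0.07, adjusted p = 0.0166), a call lost in 3 of 4 cases with a sample left out, all except that without Pak1 -/- replicate 2 (adjusted p up to 0.0848). Cxcl12, Pf4 and Ccl4 have only a lower bound, so the ligands were not ranked against Cxcl10, Ccl5 and Cxcl16.

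Of 18 signaling chemokine receptors, 10 could be tested, none was higher by limma at the adjusted threshold and 1 was lower, while 7 were dim on all 4 arrays. Among these 7 were Ccr2, which binds Ccl2, and Cx3cr1, which binds Cx3cl1. The receptor that was lower was Ccr10, a receptor of Ccl28 (-0.39, SE 0.08, adjusted p = 0.0131), a call lost without Pak1 +/+ replicate 2 (adjusted p = 0.0763) and without Pak1 -/- replicate 1 (adjusted p = 0.0558).

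Cxcr3, the receptor of Cxcl9 and Cxcl10, was near the dim end at 7.59 and 7.26 against 7.34 and 7.27 (difference 0.12, SE 0.13). Cxcr6, the receptor of Cxcl16, was at 8.33 and 8.07 against 8.39 and 8.10 (difference -0.05, SE 0.14). Neither passed the threshold. Cxcr2, the receptor of the ELR ligands, was at 6.85 and 6.17 in the Pak1 -/- arrays, not well above background, and at 6.96 and 7.60 in the Pak1 +/+ arrays (at least 1.42-fold lower in the former, adjusted p = 0.101, not past the threshold).

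Cxcr4 was at 9.29 and 10.07 against 9.70 and 9.52 (0.07, SE 0.27), its groups overlapping. The other signaling receptors tested, read by their brightest probes, were Ccr3, Ccr7, Ccr8, Ccr9 and Cxcr1. Their differences lay between -0.30 and 0.17, the lowest adjusted p being 0.286. A dimmer probe of Ccr8 (A_55_P2136348) gave -0.88 (SE 0.39, adjusted p = 0.124). Atypical receptors bind chemokines without the usual G protein signal, and all 5 were tested. Ccrl2, which presents chemerin, was higher by 0.70 (SE 0.07, adjusted p = 0.00213), and Ackr3, a scavenger of Cxcl12, by 0.44 (SE 0.10, adjusted p = 0.0190). Ackr2, a scavenger of inflammatory CC chemokines, was lower (-0.36, SE 0.08, adjusted p = 0.0182). The Ackr2 call was lost without Pak1 +/+ replicate 1 (adjusted p = 0.0988) and without Pak1 -/- replicate 2 (adjusted p = 0.0674), and the Ackr3 call without Pak1 +/+ replicate 2 (adjusted p = 0.0855) and without Pak1 -/- replicate 1 (adjusted p = 0.0648). Ackr1 gave -0.18 (SE 0.15) and did not pass. Ackr4 was at 6.93 and 7.02 in the Pak1 -/- arrays and at 6.77 and 6.59, not well above background, in the Pak1 +/+ arrays (at least 1.05-fold, adjusted p = 0.0547). It did not pass, but passed in 4 of 9 alternatives other than leaving out a sample.

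Among 31 known inducers and regulators of chemokine genes, 28 were tested, 18 were higher and 2 were lower, with a median difference of 0.60. Over all genes tested, 22.8% were higher and 28.2% were lower. When probes had to be well above background on all 4 arrays, 23 inducers were tested, 16 were higher and 1 was lower. Irf7, the interferon regulatory factor that amplifies type I interferon, showed the largest rise of the list, from 8.10 and 8.28 in the Pak1 +/+ arrays to 14.30 and 14.26 in the Pak1 -/- arrays, a difference of 6.09 (SE 0.09). Ifih1 (MDA5), a sensor of double-stranded RNA, was higher by 3.90 (SE 0.11). Irf9 and Stat2, subunits of the complex that binds interferon-stimulated elements, were higher by 2.82 (SE 0.12) and 2.77 (SE 0.13).

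Irf8, a factor known from myeloid and B cells, went the other way. It was at 12.10 and 11.84 in the Pak1 +/+ arrays and at 6.44 and 6.58, not well above background, in the Pak1 -/- arrays, at least 40.8-fold lower. Of the cytokines that switch chemokines on, chosen here with their values known, Ifng and Il1b were dim on all 4 arrays. Il1a was at 7.66 and 7.90 in the Pak1 -/- arrays and at 6.12 and 6.15, not well above background, in the Pak1 +/+ arrays, at least 1.88-fold higher (adjusted p = 0.000592). Il6 was at 9.68 and 9.61 against 9.63 and 9.64, and Il17a gave -0.79 (SE 0.52, adjusted p = 0.264). Ifnb1 was at 7.96 and 8.0 against 7.93 and 6.66 and did not pass (0.68, SE 0.42, adjusted p = 0.241). Tnf was higher, at 11.31 and 11.50 against 9.88 and 9.88 (1.53, SE 0.09, adjusted p = 0.000496).

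**Figure D5:**
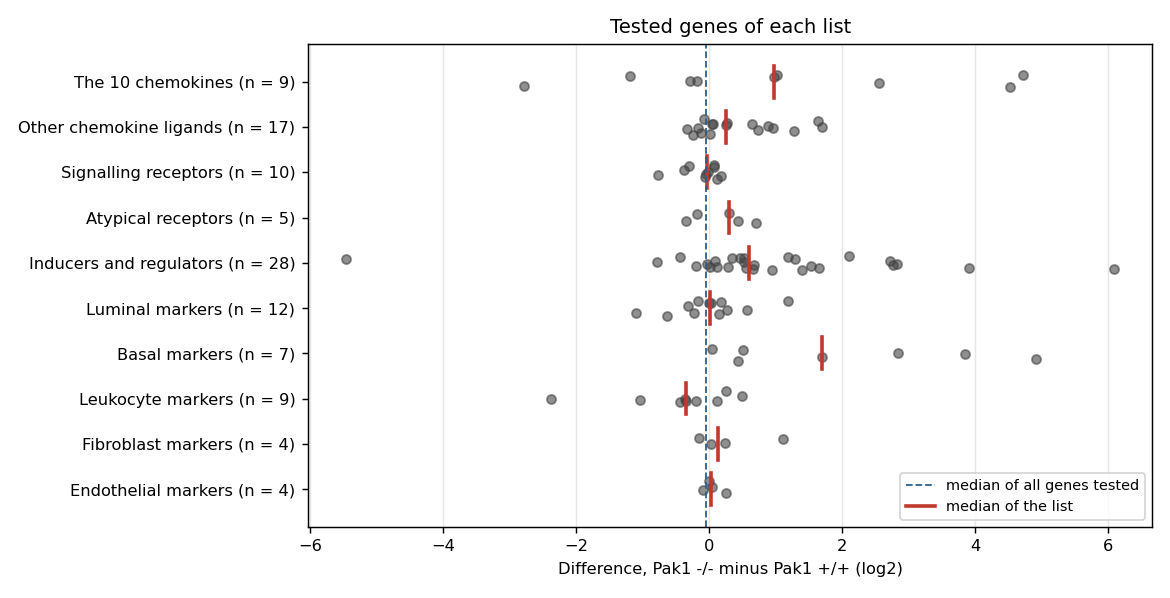
Difference in log2 intensity, Pak1 -/- minus Pak1 +/+ (horizontal axis), of each tested gene (points) in the chemokine lists and the cell type marker lists, with the list's median in red and the median of all genes tested, -0.05, as a dashed line. The point near -5.5 in the inducers is Irf8. The signaling receptor points lie between -0.77 and 0.17.

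Cell type markers were read beside these results, because in a bulk sample fewer cells of a type and less RNA per cell cannot be told apart. All 12 luminal epithelial markers were measured, with Krt8, Krt18 and Epcam well above background on every array. Of these 12, 3 were higher and 2 lower, against 4 and 1 with cyclic loess, 2 and 3 with normexp values scaled to the 75th percentile and 1 and 2 with the processed signal so scaled. With a sample left out, the Krt18 call was lost in 4 of 4 cases and the Elf3 call in 3 of 4. Their summed linear level was 1269190 to 1289490 in the Pak1 -/- and 1169020 to 1192120 in the Pak1 +/+ arrays. Of 8 basal markers 7 were tested and 6 were higher, Krt17 by 4.92, Oxtr by 3.84 and Krt14 by 2.83. The smaller rises of Krt5 and Trp63 each lost the threshold in 2 of 4 cases with a sample left out. A dimmer probe of Trp63 (A_51_P216550) was higher, at 7.65 and 7.16 against 6.19 and 6.24, the latter not well above background (adjusted p = 0.00538). The summed level of the basal markers was 91213 to 101199 against 19362 to 19862, with only Myh11 dim on all arrays. Krt14 alone made up 42.8% to 66.6% of it, and without Krt14 the sums were 30498 to 38975 against 10589 to 11363.

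Of 17 leukocyte markers, 9 were tested, none was higher at the adjusted threshold by limma and 5 were lower, namely S100a8, Adgre1, Ptprc, Cd4 and Fcer1g. A dimmer probe of Adgre1 was lower too (-1.74, SE 0.07), while a dimmer probe of Cd4 (A_52_P383089) did not pass (-0.08, SE 0.08, adjusted p = 0.421). With cyclic loess, with the replicate block and without Pak1 -/- replicate 2, 1 leukocyte marker was higher. The calls of Cd4 and Fcer1g were each lost in 3 of 4 cases with a sample left out. Itgam (CD11b) was at 16.07 and 15.51 in the Pak1 -/- arrays and at 15.39 and 15.20 in the Pak1 +/+ arrays (0.49, SE 0.21, adjusted p = 0.110), and Cd3e at 11.70 and 11.67 against 11.34 and 11.54 (0.25, SE 0.09, adjusted p = 0.0857). For both genes the groups did not overlap, but the difference did not pass the threshold. Dimmer probes of Itgam gave -0.20 (SE 0.12, adjusted p = 0.208) and 0.56 (SE 0.21, adjusted p = 0.0767). Csf1r gave 0.12 (SE 0.17). Cd3g, Lyz2, Tyrobp, Ncr1 and Itgax were dim on all 4 arrays. The summed level of the list was 64463 to 86291 in the Pak1 -/- and 78362 to 81541 in the Pak1 +/+ arrays. Itgam alone made up 48.1% to 79.9% of it, and without Itgam the sums were 17371 to 17911 against 38476 to 40681. S100a8, a neutrophil and epithelial protein, fell by 2.38 on the log2 scale, and Adgre1, a macrophage marker, fell by 1.05. Cd68 gave -0.20 (SE 0.12, adjusted p = 0.212) and did not pass, and Itgam and Csf1r had positive differences by their brightest probes. Ptprc (CD45) was at 7.15 and 7.14 against 7.59 and 7.60. The part of leukocytes in the lower Ccl2 was not tested.

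Of 9 fibroblast markers 4 were tested, and 1, Col1a1, was higher (1.12, SE 0.16), while Col3a1, Dcn, Lum and Pdgfrb were dim on all arrays. The summed fibroblast level was 1670 to 1862 in the Pak1 -/- and 1308 to 1914 in the Pak1 +/+ arrays. Of 7 endothelial markers 4 were tested and limma called none by its brightest probe, with Tek, Tie1 and Emcn dim on all arrays and a summed level of 10204 to 10575 against 9281 to 11049. A dimmer probe of Kdr (A_51_P316553) was higher, at 8.05 and 7.92 against 6.61 and 6.63, the latter not well above background (adjusted p = 0.000463), unlike the brightest Kdr probe (0.04, SE 0.12). With all genes of a list summed, the basal markers were the only cell type list whose level did not overlap between groups and differed severalfold. Without Itgam, the leukocyte sums did not overlap either. The part of basal cells or leukocytes in the chemokine differences was not tested.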

How the data were processed

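Total RNA of 4 samples, 2 Pak1 -/- and 2 Pak1 +/+, was measured on 1-color arrays. The deposited raw files come from Feature Extraction 9.5.3.1 per their headers and give each spot's linear intensity and local background, without normalization between arrays, and probe positions on mm9. A second table, in which the authors gave processed log2 values (normexp and quantile normalization, per their methods), was used as an alternative; it held values in 24008 rows.

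Here, background was corrected with normexp (offset 50) on all spots in limma 3.58.1 (R 4.3.3). The 1377 control spots were dropped, and the log2 values of the 43020 others were quantile normalized. Spots with outlier flags were set aside, and spots of each probe averaged. The 27229 probes that were well above background on 2 or more of the 4 arrays were tested with lmFit and eBayes, genotype as the only term, two-sided, adjusted by Benjamini-Hochberg over all of them. The threshold was 0.05. With 2 residual degrees of freedom, the prior added 2.62. The offset, filter and threshold were set here, and the offset understates the change of dim probes. The number of arrays limits the precision. The test was checked on simulated data.

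For a probe dim on both arrays of a group, an "at least" fold is the bright group's mean over a floor, which on each dim array is the lowest signal well above background, or the probe's own value if that is higher, averaged over the group. A gene was read by its brightest probe. Counts over genes use 21961 such probes. Neighboring genes are chemokine genes whose probes lie within 1 Mb of each other. Summed levels are sums of linear normalized values over the list's genes.

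The members and the lists were chosen with earlier results of these data known, so they are not independent support. Named were all members, Pak1, Erbb2, the other ligands past the threshold, receptors tested, the 6 inducers with the largest change, and marker genes by count. Of the genes this rule names, 1 inducer is not reported here. Alternatives covered background correction, scaling, filter, outlier spots, the deposited table, the prior, the replicate block, probe choice, threshold and leaving out each sample. Probes were matched by the gene names in the files, with older symbols for list genes.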

Additional observations from a re-analysis of the deposited data

How the results depend on the processing

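Over 147 alternative values of the members' differences, none reversed, 136 kept their side of the threshold, 8 lost it (all the dimmer Cxcl9 probe) and 3 gained it (all Cxcl1). Members higher were 5 in every setting except 4 when a probe had to be well above background on all 4 arrays, which leaves Cxcl10 untested, and 4 with a change of at least 2-fold, which drops Cxcl9. Members lower were 2, or 3 in the settings where Cxcl1 passed. All probes called numbered 14132, against 8878 at an adjusted p under 0.01 and 3413 with a change of at least 2-fold, and 10307 to 12164 with 1 sample left out, where members stayed at 5 higher and 2 lower.

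With the replicate block, 13211 probes passed, with 5 members higher and 2 lower, and no member's call changed. Replicate numbers were given by the labels. The replicate 1 minus replicate 2 differences of the groups did not go together (r = -0.03 across probes), which gave no sign of a pairing between same-numbered samples. With 2 samples a group, small differences such as those of Cxcl1 and Cxcl2 are at the edge of what the spread allows, and Ccl20 is limited by its signal over background.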

Other observations

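Cxcl11, the neighbor of Cxcl9 and Cxcl10, had 2 probes. A_55_P2160387 was at 19.05 and 18.98 in the Pak1 -/- arrays and 18.89 and 18.64 in the Pak1 +/+ arrays, a difference of 0.25 (SE 0.11). A_55_P2044413 was at 12.84 and 12.34 against 12.67 and 12.55, a difference of -0.02 (SE 0.18). Neither passed the threshold. The probes differed widely in level, and which of them reads Cxcl11 was not tested. Ccl17, a ligand of Ccr4, lay at the threshold, at 10.58 and 10.64 against 9.68 and 10.25 (0.64, SE 0.20, adjusted p = 0.0502).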
